A study of Mus musculus with 2 samples.

Results

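MicroRNA (miRNA) genes can lie inside introns of protein-coding genes, and 8 such genes, some with hosts known from neurons, are described here in embryonic mouse midbrain. They are Mir153, Mir128-1, Mir128-2, Mir330, Mir383, Mir346, Mir218-2 and Mir218-1, taken by symbol from a table of 1973 miRNA genes, and all 8 were found in it. Small RNA under 30 bases was sequenced from the midbrain of healthy embryos of strain B6NCrl at 15.5 days, with male and female tissue pooled. The design has 1 group of 2 biological replicates, replicate 2 from 62 embryos and replicate 1 from 78, and no second tissue, age or genotype. Sense-strand reads within miRNA genes numbered 5752476 in replicate 2 and 3429704 in replicate 1. Levels below are sense counts per gene scaled to a library total of 1000000 (CPM), so that 1 read added 0.174 CPM to a gene in replicate 2 but 0.292 CPM in replicate 1. Reads with several mapping places were tallied apart from any gene and made up 35.8% of all reads in replicate 2 and 37.7% in replicate 1. The questions this design allows are how strongly each of these genes was counted, how they stand to each other and to other miRNA genes, and how far the pools differed.

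An intronic miRNA is cut as a short hairpin out of the host's primary transcript by the Drosha complex, exported, and trimmed by Dicer to a mature strand that guides Argonaute to target mRNAs. Bases 2 to 8 of the mature strand, the seed, carry most of the target pairing. Because host and hairpin can come from the same transcript, such a miRNA is often produced where its host is transcribed, although intronic miRNAs can also have promoters of their own. Host mRNA was not measured in these small RNA libraries, so the relation to each host is given here as position in the genome.

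In the mm10 assembly all 8 hairpins lie inside their host on its own strand. Mir128-1 (chromosome 1, 128202361 to 128202430) is in intron 19 of R3hdm1, which encodes a protein with an R3H nucleic acid binding domain. Mir128-2 (chromosome 9, 112118636 to 112118711) is in intron 19 of Arpp21, an R3H domain relative of R3hdm1 that encodes a phosphoprotein regulated by cyclic AMP. Mir218-1 (chromosome 5, 48223942 to 48224051) and Mir218-2 (chromosome 11, 35616816 to 35616925) are each in intron 14 of 35, in Slit2 and Slit3, paralogues for secreted axon guidance ligands of the Robo receptors. Those intron numbers are for the coding transcript of the host that GENCODE marks as principal, and for the longest such transcript where there was more than 1 choice. Mir153 (chromosome 12, 117250817 to 117250885) is in intron 19 of Ptprn2, a receptor-type phosphatase family protein of dense-core vesicles. Mir346 (chromosome 14, 34894609 to 34894706) is in intron 2 of Grid1, a delta glutamate receptor subunit. Mir383 (chromosome 8, 38252133 to 38252202) is in intron 1 of Sgcz, which encodes zeta-sarcoglycan. Mir330 (chromosome 7, 19181465 to 19181562) is in intron 1 of Eml2, a microtubule-associated protein gene.

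The word intronic holds without exception for 7 of the 8 genes. Mir330 is the exception, since 84 bases of its hairpin fall in an exon of 1 of the 8 annotated Eml2 transcripts, a noncoding one. The intron around Mir330 is 0.485 kb long, against 707.7 kb around Mir383 and 123.04 kb around Mir346. The hosts are long genes, with a median of 456 kb and a range of 30.1 kb (Eml2) to 1139 kb (Sgcz). The 155 coding hosts of all intronic miRNAs detected in both libraries had a median length of 72.5 kb, and 40% of them were over 100 kb, against 7 of 8 here. Hosts of the members were not taken out of the 155, but Eml2 is not among them because Mir330 overlaps an exon. No other annotated miRNA gene shares any of these hosts on the same strand.

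**Figure D1:**
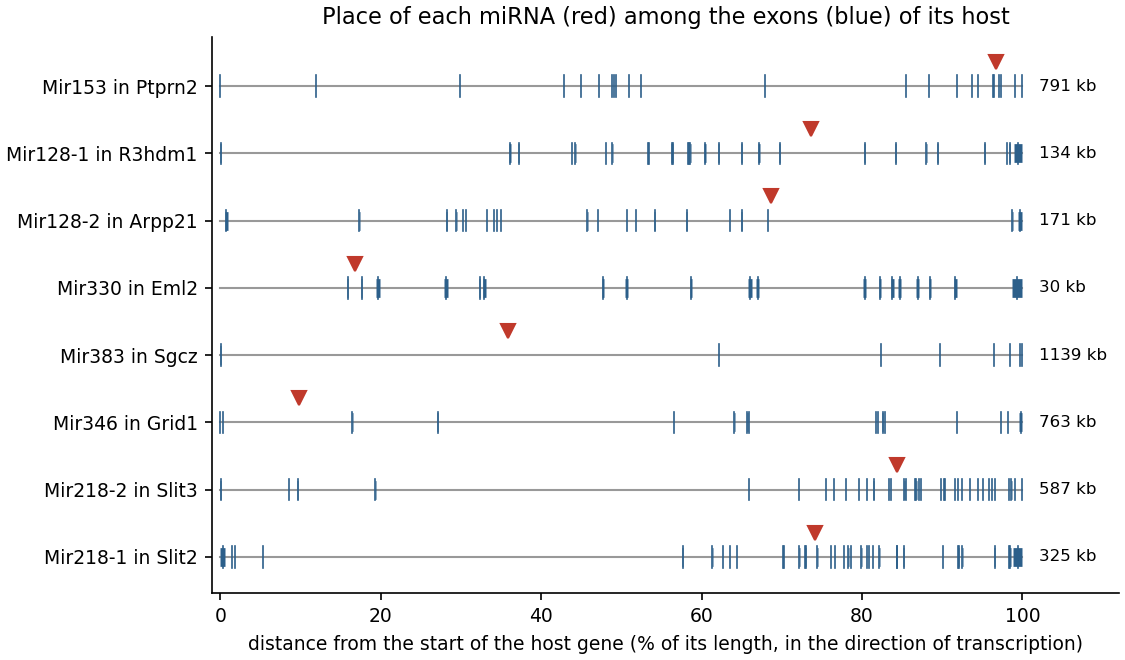
Place of each miRNA gene (red triangle) along its host, as a percentage of host length from the host's start in the direction of transcription, with exons of the chosen coding transcript as blue bars and host length in kb at the right. Mir346, Mir330 and Mir383 lie in the first 35.9% of their hosts, and the other 5 lie at 68.6% or beyond, with Mir153 at 96.7%.

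RefSeq (GRCm38.p6) gives sequences for 7 of the 8 genes, at the same coordinates as GENCODE. The strands that tell the genes apart, or join them, are shown first, with the seed in capitals.
miR-128-3p, from both Mir128 genes (chr1:128202404-128202424 and chr9:112118644-112118664): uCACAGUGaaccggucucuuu
miR-128-1-5p, from Mir128-1 (chr1:128202369-128202389): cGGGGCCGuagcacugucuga
miR-128-2-5p, from Mir128-2 (chr9:112118679-112118701): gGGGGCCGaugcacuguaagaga
miR-218-5p, from both Mir218 genes (chr5:48223966-48223986 and chr11:35616840-35616860): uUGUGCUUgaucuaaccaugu
miR-218-1-3p, from Mir218-1 (chr5:48224005-48224026): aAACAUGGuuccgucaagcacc
miR-218-2-3p, from Mir218-2 (chr11:35616882-35616903): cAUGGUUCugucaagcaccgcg
miR-153-3p, from Mir153 (chr12:117250860-117250881): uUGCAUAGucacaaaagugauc
miR-346-5p, from Mir346 (chr14:34894624-34894646): uGUCUGCCcgagugccugccucu
miR-330-5p, from Mir330 (chr7:19181486-19181507): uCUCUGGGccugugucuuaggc

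The seeds fall into separate groups. Within the set the Mir128 genes share the seeds of both arms, while the Mir218 genes share the 5p seed and differ in the 3p seed. No other mouse gene in the RefSeq table has either Mir128 seed or either Mir153 seed, that of miR-153-5p included. The seed of miR-330-5p is also that of Mir326, another intronic miRNA, which had 62.1 CPM in replicate 2 and 46.4 CPM in replicate 1, far below Mir330. Counts in the files are per hairpin gene, so no value here says which arm the reads came from.

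How far each copy could be told from its partner depends on the hairpins, which follow with the longest run shared by each pair in capitals.
Mir128-1 hairpin (chr1:128202361-128202430, + strand): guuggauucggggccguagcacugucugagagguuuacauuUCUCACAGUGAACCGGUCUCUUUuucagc
Mir128-2 hairpin (chr9:112118636-112118711, - strand): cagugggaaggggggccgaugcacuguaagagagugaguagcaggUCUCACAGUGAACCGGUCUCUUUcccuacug
Mir218-1 hairpin (chr5:48223942-48224051, + strand): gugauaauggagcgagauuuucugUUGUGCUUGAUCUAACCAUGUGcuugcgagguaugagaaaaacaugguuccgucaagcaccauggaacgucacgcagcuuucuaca
Mir218-2 hairpin (chr11:35616816-35616925, + strand): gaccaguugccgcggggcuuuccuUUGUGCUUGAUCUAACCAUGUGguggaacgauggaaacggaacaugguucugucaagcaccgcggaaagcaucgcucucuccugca

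The shared run was 23 bases in the Mir128 pair and 22 bases in the Mir218 pair, and each run holds the whole shared mature strand of 21 bases. A read that starts at the first base of miR-128-3p matches both hairpins until it is 22 bases long, and one that starts at the first base of miR-218-5p until it is 23 bases long. Such shorter reads have several mapping places, so the gene counts of these 4 genes leave them out. Levels of Mir128-1, Mir128-2, Mir218-1 and Mir218-2 are therefore those of reads that could be placed, and how much was left out per gene was not tested. The other 4 genes shared at most 14 bases with any other miRNA transcript of GENCODE M21. Matches elsewhere in the genome were not checked.

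Mir153 was the most counted of the 8 genes. Its mature strands are enriched in brain and are known to target the mRNA of alpha-synuclein. It had 3495 CPM in replicate 2 and 3224 CPM in replicate 1, a mean of 3359.8 ± 191 CPM (SD, n = 2). That placed it 54th of all genes in replicate 2 and 56th in replicate 1. Mir153 alone held 48.6% of the reads of the 8 genes in replicate 2 and 48.9% in replicate 1. The long noncoding gene Gm5441 is annotated on the opposite strand at this site, and no opposite-strand read was counted at Mir153 in either library.

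The Mir128 genes came next in placed reads, and the copy in R3hdm1 was the higher of the pair in both libraries. miR-128 is a neuron-enriched miRNA that in mice is known to restrain neuronal excitability. Mir128-1 had 1491 CPM in replicate 2 and 1403 CPM in replicate 1 (mean 1447 ± 62.5 CPM, SD, n = 2). Mir128-2 had 917 CPM in replicate 2 and 746 CPM in replicate 1 (mean 831 ± 121 CPM, SD, n = 2). The ranges of the copies did not overlap. Mir128-1 exceeded Mir128-2 in counts 1.63 times in replicate 2 (95% exact counting interval 1.57 to 1.68) and 1.88 times in replicate 1 (1.79 to 1.97). On the log2 scale the mean ratio was 0.81 ± 0.15 (SD, n = 2), so the excess was larger than the replicate spread. Its size differed between the pools by more than counting error. A longer 3p read is placed by the base after the shared run, u in Mir128-1 and c in Mir128-2. How this affects the ratio, and how reads that match both hairpins divide between the copies, was not tested. Both copies encode the same 3p strand, and together their placed reads came to 2278 CPM. That sum was below Mir153 alone, but reads that match both Mir128 hairpins are missing from it.

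In placed reads the Mir218 genes were the lowest of the 8, and here the copy in Slit3 was the higher. miR-218 is best known from motor neurons, where in mice it is abundant and needed for neuromuscular function. Mir218-2 had 39.1 CPM in replicate 2 and 43.4 CPM in replicate 1 (mean 41.3 ± 3.06 CPM, SD, n = 2), from 225 and 149 reads. Mir218-1 had 19.3 CPM in replicate 2 and 17.2 CPM in replicate 1 (mean 18.2 ± 1.48 CPM, SD, n = 2), from 111 and 59 reads. The copies did not overlap. Mir218-1 stood at 0.493 times Mir218-2 in replicate 2 (95% exact counting interval 0.389 to 0.622) and 0.396 times in replicate 1 (0.288 to 0.539). The mean log2 ratio was -1.18 ± 0.22 (SD, n = 2), and the intervals of the libraries overlapped. The placed reads of both copies together came to 59.5 CPM. Reads that match both Mir218 hairpins are missing from this sum, so the lowest place holds for placed reads only.

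Mir330, Mir383 and Mir346 had middle levels. Mir330 had 531 CPM in replicate 2 and 593 CPM in replicate 1 (mean 562 ± 44.2 CPM, SD, n = 2). Mir383 had 482 CPM in replicate 2 and 401 CPM in replicate 1 (mean 442 ± 57.2 CPM, SD, n = 2). Mir330 was the higher of these in both libraries, but by 1.10 times in replicate 2 and 1.48 times in replicate 1. Divided by hairpin length their order turned, with Mir383 at 6.31 and Mir330 at 5.74 CPM per base. The RNA sequenced was under 30 bases, shorter than any of the hairpins, so this division need not be the fairer measure. Mir346 had 214 CPM in replicate 2 and 162 CPM in replicate 1 (mean 188 ± 37.0 CPM, SD, n = 2), the largest relative spread of the 8 at 19.7% of its mean. Mir383 and Mir346, in the long introns of Sgcz and Grid1, were below Mir330, whose intron is the shortest of the 8. Other members went the other way. Mir128-2, in an intron of 51.9 kb, was above Mir330, and Mir218-1, in one of 4.57 kb, was the lowest in placed reads. A relation of level to intron length was not tested.

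**Figure D2:**
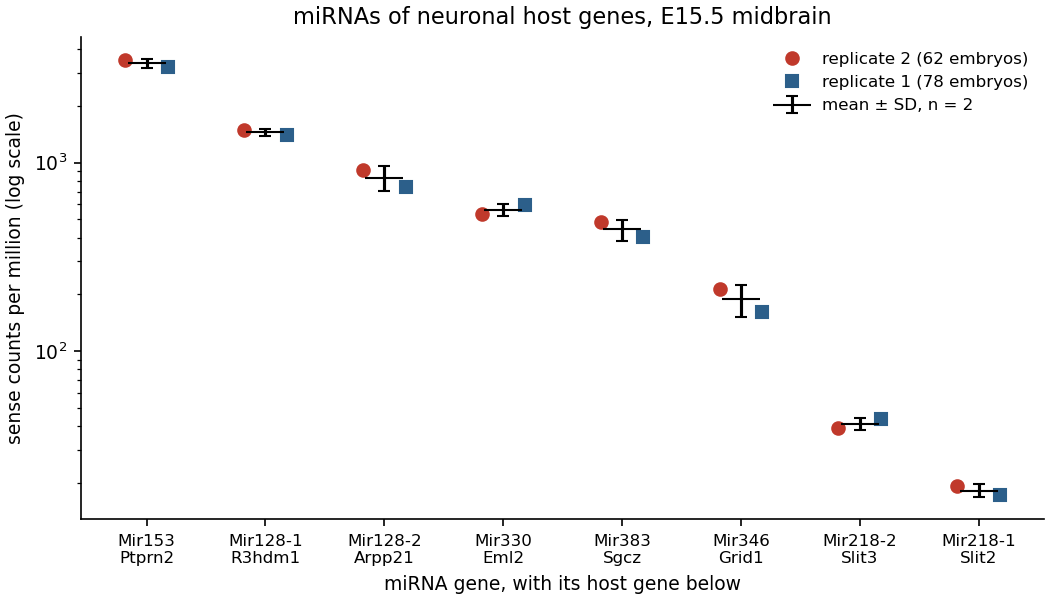
CPM on the sense strand (log axis) of each gene in replicate 2 (circles) and replicate 1 (squares), with the mean and SD of n = 2 as bars and the host below the name. Levels ran from 3359.8 CPM for Mir153 to 18.2 CPM for Mir218-1, and neighbouring genes did not overlap. Values of the Mir128 and Mir218 genes are of placed reads only.

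The order of levels was the same in both libraries. No neighbours in it overlapped, and every gap between neighbouring means was larger than the sum of their SDs. For the Mir128 and Mir218 genes only placed reads enter the order, so their places could be understated beside genes without such a copy. The gap was narrowest between Mir330 and Mir383, at 120.5 CPM against summed SDs of 101 CPM, and widest as a ratio between Mir346 and Mir218-2, at 4.55 times. An exact two-sided permutation test of 2 against 2 separate values cannot go below p = 0.333. Both genes of a pair were counted in the same libraries, which leaves fewer arrangements still, so no test of the order was made. Hairpins were 69 to 110 bases long, and the order per base differed only by the exchange of Mir330 and Mir383.

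The 8 genes together held 0.719% of sense counts in replicate 2 (95% exact Clopper-Pearson interval 0.712 to 0.726) and 0.659% in replicate 1 (0.650 to 0.668). All 8 reached 1 CPM in both libraries, as 22.5% of the whole table did. A mean of 1000 CPM was reached by 2 of the 8, Mir153 and Mir128-1, against 4.66% of the table and 20.8% of the 443 detected genes. None of the 8 had an opposite-strand read, so each stood below the limit of 3 counts there (0.522 CPM in replicate 2 and 0.875 CPM in replicate 1). That too is common, since 91.2% of detected genes had none. In tissue, fewer cells that carry a miRNA and less of it per cell cannot be told apart.

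**Figure D3:**
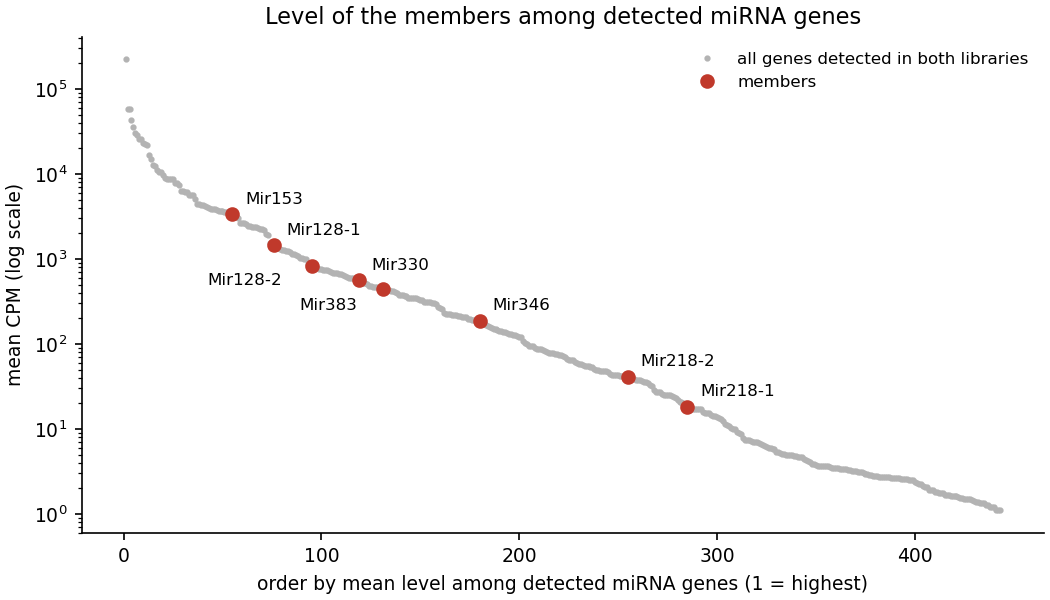
Mean CPM (log axis) of the 443 miRNA genes detected in both libraries, ordered from the highest, with the 8 genes in red. They spread from position 55 (Mir153) to 285 (Mir218-1). Positions of the Mir128 and Mir218 genes rest on placed reads only.

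Set beside miRNA genes in introns of coding genes, most of the 8 stood in the upper part. The other 173 detected genes of that kind had a median level of 27.3 CPM, and 7 of the 8 were above it, with Mir218-1 below. Mir330, which overlaps an exon, falls outside that class but is included in the 8. Mir153 exceeded 87.3% of those 173 genes, Mir128-1 83.2% and Mir346 66.5%. Mir218-2 exceeded 53.8% and Mir218-1 47.4% of them. The places of the Mir128 and Mir218 genes rest on placed reads only. The median of the 8 genes was 502 CPM, beside 72.3 CPM over all 443 detected genes.

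A list of 21 other miRNAs in introns of genes with neuronal roles gave a wider picture. GENCODE places all 21 in an intron of the named host, with Mir139 lying in introns of both Pde2a and the overlapping gene Gm45837, and 20 were detected, with a median of 96.6 CPM and 6 at 1000 CPM or more. The highest was Mir149 in Gpc1, a heparan sulfate proteoglycan, at 22289 ± 1747 CPM (SD, n = 2). Mir342 in Evl, an actin regulator, had 9836 ± 485 CPM. Mir708 in Tenm4, a teneurin of synaptic adhesion, had 3642 ± 316 CPM and was above Mir153 in both libraries. Mir598 in Xkr6 had 3447 ± 478 CPM, a mean within 1 SD of that of Mir153. The member with no count was Mir876 in Lingo2. Within a single host levels also ranged widely, since the 5 listed miRNAs of the serotonin receptor gene Htr2c ran from 819 ± 104 CPM for Mir1298 to 1.63 ± 0.650 CPM for Mir1912.

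Between the pools, 5 of the 8 genes differed beyond counting error, against 19.8% of all genes tested. Of these, 4 were higher in replicate 2 and 1 was lower, in a two-sided conditional exact binomial test with Benjamini-Hochberg adjustment over 717 genes. Over all genes 9.76% were called higher and 10% lower. Mir346 was 1.29-fold higher in replicate 2 (log2 ratio 0.37, 95% counting interval 0.23 to 0.52, adjusted p 3.47e-06 in the exact binomial test). Mir128-2 had a log2 ratio of 0.27 (0.20 to 0.33, adjusted p 1.79e-13 in the exact binomial test), and Mir383 one of 0.23 (0.14 to 0.33, adjusted p 8.70e-06 in that exact test). Mir153 was higher in replicate 2 by only 0.083 on the log2 scale (adjusted p 1.07e-05, exact binomial test). Mir330 was the gene lower in replicate 2, at a log2 ratio of -0.19 (-0.28 to -0.11, adjusted p 2.55e-05 in the exact binomial test). Mir128-1 (0.055, adjusted p 0.147), Mir218-2 (-0.18, adjusted p 0.564) and Mir218-1 (0.13, adjusted p 0.921) did not pass that exact test.

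The share of genes called was larger at high levels. Among 203 genes averaging 100 CPM or more, 57.1% were called in either direction and 28.1% as higher in replicate 2, against 5 and 4 of the 6 genes of that level here. The median absolute log2 ratio was 0.19 over the 8 genes and 0.15 over all detected genes. The test compares these libraries, not conditions, and with 1 library per pool no difference between pools has a replicate check. Of the list of 21, the 20 with a count were tested, and 7 were higher in replicate 2, among them Mir204, Mir598 and Mir1298. None was called lower (0, also 0 at an unadjusted p under 0.05 in the exact binomial test). Over all genes tested 9.76% were called higher and 10% lower, and at 100 CPM or more 28.1% were called higher. The 5 marker miRNAs of hindbrain and spinal cord (Mir10 and Mir196 genes, with Mir196a-1 at 0 counts) summed to 1481 CPM in replicate 2 and 1008 CPM in replicate 1. Their part in the higher levels of Mir346, Mir128-2 and Mir383 was not tested.

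**Figure D4:**
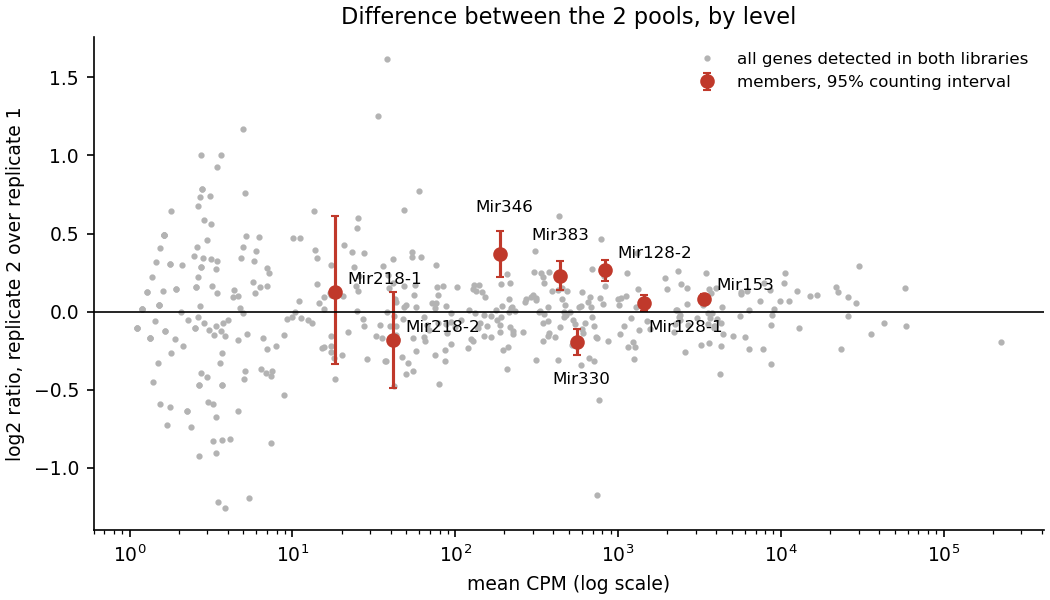
Log2 ratio of replicate 2 over replicate 1 against mean CPM (log axis) for genes detected in both libraries (grey) and for the 8 genes (red, with 95% counting intervals). Mir346, Mir128-2 and Mir383 lie above 0, Mir330 below it, and the intervals of both Mir218 genes include 0.

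The tissue label was set against marker miRNAs. Neuronal Mir137 had 11585 CPM in replicate 2 and 10800.1 CPM in replicate 1, which was nearly all of the sum over the 6 neuronal markers matched (12104 CPM in replicate 2 and 11266 CPM in replicate 1). Mir9-3 had 512 CPM in replicate 2 and 455 CPM in replicate 1. The other 4 were near 0, since Mir124a-1, Mir124a-2, Mir124a-3 and Mir9-2 ran from 0.522 to 3.30 CPM in replicate 2 and from 0.583 to 4.08 CPM in replicate 1. Muscle Mir206 had 16.0 CPM in replicate 2 and 11.7 CPM in replicate 1. Mir1a-1, Mir133a-1 and Mir133a-2 were at 0 counts in both, but like the Mir124a and Mir9 genes they are copies, and reads with several mapping places are in no gene's count, so low values of copies say little about muscle or neurons here. Liver Mir122 had 76.1 CPM in replicate 2 and 43.2 CPM in replicate 1. Markers of red cells summed to 186 and 178 CPM, and white cell Mir223 had 155 and 161 CPM. Endothelial Mir126a was high, at 21568 CPM in replicate 2 and 24909 CPM in replicate 1.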

How the data were processed

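The authors deposited whole read counts per miRNA gene for each library, without normalization, in columns for either strand, the sense strand and the antisense strand. Alignment was to mm10 with GENCODE M4, per the deposited readme; for the aligner and counter, names and settings were not given in the sources used here. In each library 4 rows name no gene and stayed out of library sizes. In replicate 2 and replicate 1, 35.8% and 37.7% of reads had more than 1 mapping place, 16.9% and 13.4% did not map, 3.43% and 3.57% lay in no gene, and 0 were ambiguous. Of 1973 identifiers, 1894 matched GENCODE M21 (mm10), which gave symbols and positions.

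Sense counts were scaled to CPM. Ratios used TMM factors of edgeR 4.0.16 and a pseudocount of 1 CPM, which understates changes of low genes. The exact binomial test (SciPy 1.17.1) was tried on simulated counts that held counting error only. That trial cannot show how the test behaves where pools vary by more than counting error. With 1 group, edgeR's quasi-likelihood test has no contrast. Intervals are at 95% and, like the floor of 3 counts, cover counting error only, since reads are not independent molecules. The labels call the libraries biological replicates from separate pools.

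The members, lists and tests were chosen with earlier results of these data known. Named genes were to be the members, their hosts and the 4 highest of the list of 21. Mir1298, Mir139, Mir1912, Mir204, Mir326 and Mir876 were named after their values were seen. Markers Mir9-1, Mir1a-2 and Mir142 had no symbol match and were not used here. Alternatives covered the strand column, library size, detection limit, scaling by DESeq2 1.42.0 or total counts, pseudocount, filter and leaving out each replicate.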

Additional observations from a re-analysis of the deposited data

How the results depend on the processing

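With reads of several mapping places added to the library size, the median level of the 8 genes was 275 CPM in place of 502, since every level was scaled by about 0.549 by construction. With counts regardless of strand it was 490.4 CPM, because the total grew while no member gained a read. With either replicate left out the median lay between 497 and 506 CPM, the share of the members between 0.659% and 0.719%, the log2 ratio of Mir128-1 over Mir128-2 between 0.70 and 0.91, and that of Mir218-1 over Mir218-2 between -1.34 and -1.02. All 8 genes were detected with either replicate alone and at limits of 0.5, 5 and 10 CPM. Detected miRNA genes in introns of any host, a wider class than the introns of coding genes above, had a median of 45.5 CPM. All other detected miRNA genes, Mir330 among them, had a median of 87.8 CPM. Both medians were 0 CPM without the detection limit, as most genes then had no count. For the ratios between libraries, 31 of 32 alternatives over the 8 genes kept direction and call. Alternatives with another pseudocount kept both by construction, as it does not enter the test and cannot turn the sign of a ratio. Only scaling by DESeq2 or by total counts could have changed a call. The exception was Mir128-1 under scaling by total counts, at 0.088 on the log2 scale (adjusted p 0.00460 in the exact binomial test), which made 5 genes higher in replicate 2. No paired comparison of conditions was possible because the design has 1 group, and only the ratios of copies were taken within each library. Depth limits the Mir218 genes most, with 59 to 225 reads each.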
